A study of Homo sapiens with 8 samples.

Results

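The genes for ion exchangers, ion cotransporters and cation pumps were examined in hCMEC/D3, an established human line derived from the endothelium of small brain vessels and grown as a model of the barrier between blood and brain. The genes were chosen by symbol alone: the solute carrier (SLC) families 4, 8, 9, 12, 13, 20, 24, 26 and 34, the subunits of the sodium pump (ATP1A and ATP1B), and the calcium pumps (ATP2A, ATP2B and ATP2C). This gave 77 of the 23346 genes listed, and the counts below are over 71 of them. Polyadenylated RNA from 8 replicate samples of the line was sequenced, and the 8 libraries form 1 group with no second condition. The labels name no treatment, and a line of 1 cell type lacks the astrocytes and pericytes that surround brain capillaries. Whether separate cultures lie behind the replicates is not stated. Every p-value here therefore takes these libraries as its units, and the differences between them may be technical. In these bulk samples fewer cells that use a gene and less RNA per cell cannot be told apart.

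Cells keep sodium low and potassium high inside with the sodium pump, a P-type ATPase made of a catalytic alpha subunit (ATP1A) and a beta subunit (ATP1B) that it needs to leave the endoplasmic reticulum. The gradient drives carriers that move other ions: sodium/proton exchangers (SLC9), the sodium-coupled ones among the bicarbonate carriers (SLC4) and cation-chloride cotransporters (SLC12). It also drives phosphate carriers (SLC20 and SLC34) and sodium/calcium exchangers (SLC8 and SLC24). Calcium is moved by its own pumps, into the endoplasmic reticulum by SERCA (ATP2A), out of the cell by PMCA (ATP2B) and into the Golgi by SPCA (ATP2C). In the blood-brain barrier these proteins set the ionic composition of brain fluid, control cell volume and pH, and refill calcium stores.

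Library totals ranged from 69388544 to 90205244 counts. No count was odd, and 2 counts were taken here as 1 read pair. All 10 endothelial marker genes examined (CDH5, PECAM1, VWF, KDR, FLT1, TEK, TIE1, ENG, CLDN5 and ERG) were detected, with a summed level of 2357 to 4370 CPM (counts scaled to library size, with TMM factors) over the libraries. Of the markers of other cells, 3 of 6 mural, 1 of 6 astrocyte, 2 of 6 neuronal, 2 of 6 epithelial and 0 of 14 microglial, erythroid and muscle genes were detected. Those detected were PDGFRB (9.57 CPM), RGS5 (14.4) and ACTA2 (4.74) of the mural list, GJA1 (353) of the astrocyte list, TUBB3 (53.7) and SYT1 (4.17) of the neuronal list, and KRT18 (358) and KRT8 (26.1 CPM) of the epithelial list. GFAP and AQP4 of astrocytes, SNAP25 of neurons and TTR of choroid plexus were not, and AQP4 had 0 counts in all libraries. Replicates 2 and 8, and less so replicate 7, stood apart from the others: long transcripts and transcripts poor in G and C had fewer counts in them. Leaving out 2 of 8 libraries cannot move a mean by 1 SD of the 8 values, so that bound says nothing of stability. Without replicates 2 and 8 the mean of SLC4A7 went from 37.6 to 45.6 CPM and that of SLC26A2 from 186 to 219 CPM. The mean of SLC4A2 went down, from 182 to 164 CPM. No log2 ratio of the 36 gene pairs compared below moved by more than 0.55.

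A gene was called detected at 1 CPM or more in all 8 libraries. By this rule 29 of the 71 genes were detected, or 40.8%, against 51.3% of all listed genes. Without replicates 2 and 8 it was 32, with ATP1B2, SLC24A4 and SLC24A5 added. The detected set held 2 of 4 ATP1B genes, 3 of 3 ATP2A, 2 of 4 ATP2B, 1 of 2 ATP2C, 5 of 10 SLC4, 3 of 9 SLC9, 5 of 8 SLC12, 2 of 2 SLC20, 2 of 6 SLC24 and 4 of 11 SLC26 genes. None of the 3 SLC8, 5 SLC13 and 3 SLC34 genes was among them. Of the 42 genes not detected, 4 had a mean of at least 1 CPM (ATP1B2, SLC24A5, SLC24A4 and SLC26A4), and 21 had a mean under 0.1 CPM. None had 0 counts in every library, and 16 had 0 counts in at least 1. On plain library totals, without TMM factors, 3 read pairs would give a level of 0.0665 to 0.0865 CPM. Not detected therefore means a level below this rule and does not show absence. For genes such as SLC4A4 and SLC13A2, with 2 counts each over all 8 libraries, a low level and absence cannot be told apart.

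The letters upstream of these genes were examined because CpG-rich promoters are typical of broadly used genes. The window was the 250 bases before the start of the canonical transcript (GENCODE 44 lifted to GRCh37), and its CpG content was scored as observed over expected from its C and G content. The ratio exceeded 0.6 in 23 of 29 detected genes (79.3%) and in 17 of 42 genes not detected (40.5%). Over all listed genes with a window the same shares were 85.1% and 33.2%. Sequences are shown for ATP1B3, the highest of the 71 per transcript length, for SLC4A7 and SLC26A2, whose levels differed most between libraries, and for a detected and an undetected sodium-potassium-chloride cotransporter, SLC12A2 and SLC12A1. They read 5′ to 3′ on the strand of the gene, and capitals mark GGGCGG (GC box) and CCAAT on either strand, and TATAAA on either strand where present.
ATP1B3 (GRCh37 chr3:141595235-141595484, plus strand): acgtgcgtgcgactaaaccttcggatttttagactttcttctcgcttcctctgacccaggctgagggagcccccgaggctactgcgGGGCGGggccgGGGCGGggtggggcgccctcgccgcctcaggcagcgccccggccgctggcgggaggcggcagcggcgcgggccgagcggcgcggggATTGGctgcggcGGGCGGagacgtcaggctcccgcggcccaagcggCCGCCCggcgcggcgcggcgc
SLC4A7 (GRCh37 chr3:27525876-27526125, minus strand): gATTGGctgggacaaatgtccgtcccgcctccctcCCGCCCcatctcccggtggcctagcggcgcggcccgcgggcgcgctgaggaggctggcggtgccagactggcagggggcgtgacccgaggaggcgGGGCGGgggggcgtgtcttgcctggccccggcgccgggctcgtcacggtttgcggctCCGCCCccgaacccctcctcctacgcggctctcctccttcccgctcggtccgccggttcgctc
SLC26A2 (GRCh37 chr5:149340071-149340320, plus strand): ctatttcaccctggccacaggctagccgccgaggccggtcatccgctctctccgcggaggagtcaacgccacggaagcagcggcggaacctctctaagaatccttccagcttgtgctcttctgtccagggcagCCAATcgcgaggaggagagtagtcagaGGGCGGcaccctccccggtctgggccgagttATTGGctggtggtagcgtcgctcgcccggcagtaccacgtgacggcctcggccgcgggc
SLC12A2 (GRCh37 chr5:127419208-127419457, plus strand): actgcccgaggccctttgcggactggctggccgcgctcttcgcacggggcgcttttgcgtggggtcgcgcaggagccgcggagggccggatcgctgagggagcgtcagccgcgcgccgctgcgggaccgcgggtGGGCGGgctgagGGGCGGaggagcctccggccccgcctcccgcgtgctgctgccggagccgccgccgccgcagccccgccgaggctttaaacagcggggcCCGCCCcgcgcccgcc
SLC12A1 (GRCh37 chr15:48498249-48498498, plus strand): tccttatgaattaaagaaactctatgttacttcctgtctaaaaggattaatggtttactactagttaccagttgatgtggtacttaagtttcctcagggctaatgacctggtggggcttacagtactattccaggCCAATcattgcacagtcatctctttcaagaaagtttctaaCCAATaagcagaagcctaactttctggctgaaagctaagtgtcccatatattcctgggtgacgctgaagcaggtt

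The windows of ATP1B3, SLC4A7, SLC26A2 and SLC12A2 had 39, 32, 24 and 40 CpG sites, and that of SLC12A1 had 1. GGGCGG occurred 4 times in that of ATP1B3, 3 times in those of SLC4A7 and SLC12A2, 1 time in that of SLC26A2 and not in that of SLC12A1, which held 2 CCAAT matches. The SLC26A2 window also held 2 and those of ATP1B3 and SLC4A7 held 1 each, and TATAAA was in none of these 5. The SLC4A7 window lies upstream of the position where the deposited table starts the gene, since the canonical transcript begins farther 5′. Across the set, GGGCGG was present in 21 of 29 detected genes (72.4%) and in 21 of 42 genes not detected (50%). Over all listed genes with a window the shares were 72.7% of those detected and 34.9% of those not detected. TATAAA was in 0 of 29 and 9 of 42 windows, against 4.73% and 15.3% of all detected and undetected listed genes. CCAAT was in 12 of 29 and 15 of 42, against 34.8% and 32.4%. High CpG content did not separate the genes by itself. SLC4A4, the electrogenic sodium bicarbonate cotransporter with the lowest CPM of the 71, had a ratio of 0.993, above that of SLC4A7 (0.888).

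**Figure D1:**
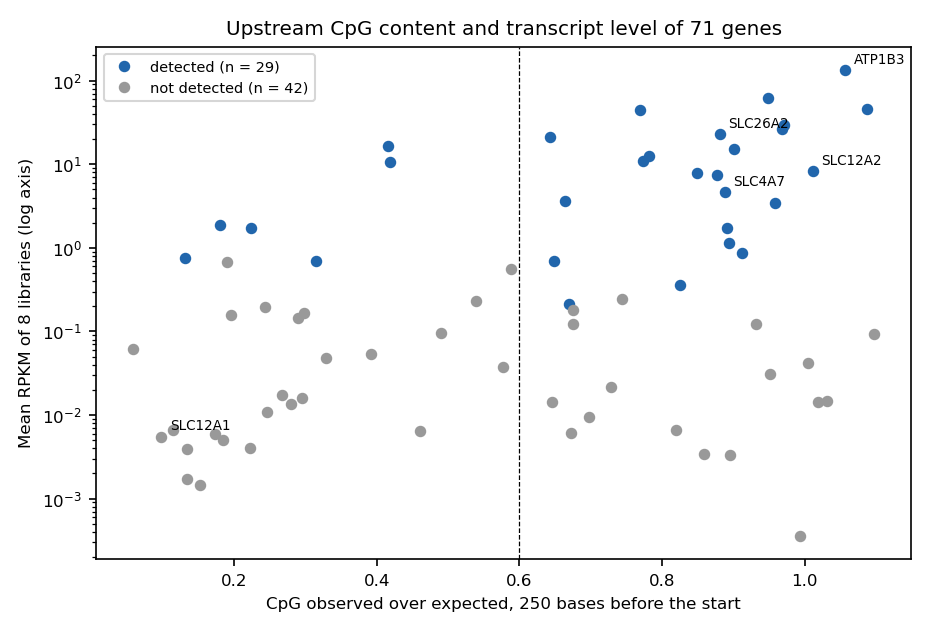
CpG observed over expected in the 250 bases before the start (x) and mean RPKM over 8 libraries on a log axis (y) for 29 detected genes (blue) and 42 genes not detected (grey). The dashed line marks a ratio of 0.6, and 23 blue and 17 grey points lie to its right.

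Levels of different genes were compared per transcript length, as RPKM (CPM per kilobase of the canonical transcript). The median level of the 29 detected genes was 7.95 RPKM, against 11.4 RPKM over all detected genes. Their transcripts were longer, with a median of 4695 nt against 3352 nt, and on CPM the medians were 37.6 and 37.7. Together the 71 genes took 0.204 ± 0.0224% of the counts (SD, n = 8). Within each family, every pair of detected genes was compared by the log2 ratio of RPKM + 0.1 in the same library. The 36 pairs reported here were among 50 pairs, each tested by an exact two-sided sign-flip permutation over the 8 libraries with Benjamini-Hochberg adjustment over the 50. The smallest p this test can give is 0.00781, adjusted to 0.00930, and 32 of the 36 pairs passed an adjusted p of 0.05. Any pair with the same direction in all 8 libraries gets this smallest p, whatever the size of its ratio. How many pairs of other genes would pass was not tested. Unless another value is given, a pair described as higher below had these smallest p-values and the same direction in 8 of 8 libraries.

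**Figure D2:**
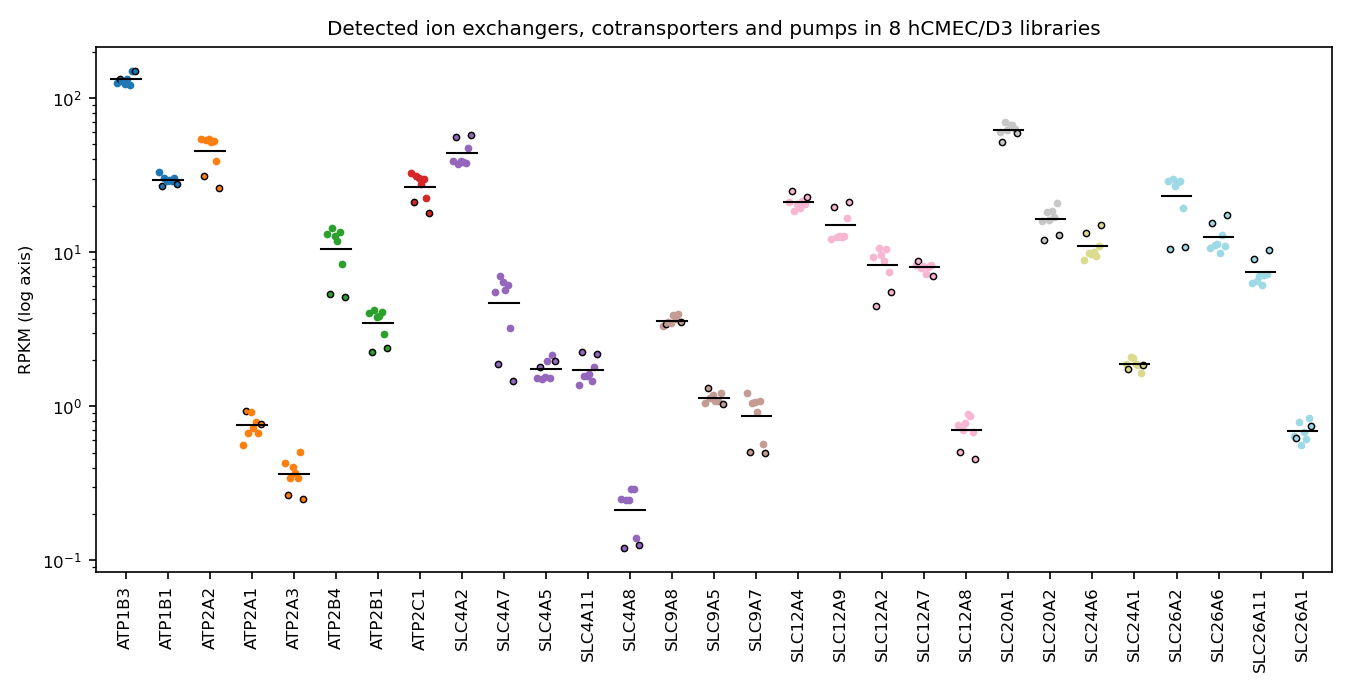
RPKM on a log axis for the 29 detected genes, grouped by family, with 1 point per library and a line at the mean. Points with a black edge are replicates 2 and 8, and ATP1B3 forms the top of the plot, at a mean of 133 RPKM.

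The sodium pump's beta subunits were represented by 2 detected genes. ATP1B3 (hg19, as for all gene positions here: chromosome 3, 141595470 to 141645382, 7 exons) had 126, 132, 129.7, 123, 132, 122, 150.1 and 149.6 RPKM in replicates 1 to 8. Its mean of 133 ± 10.99 RPKM (SD, n = 8) was the highest of the 71 genes. ATP1B1, the beta subunit best known from epithelia (chromosome 1, 169075947 to 169101960, 6 exons), had 33.2, 26.99, 30.2, 28.9, 29.4, 29.1, 30.5 and 27.8 RPKM. The ranges of the 2 beta genes did not overlap. ATP1B3 exceeded ATP1B1 by a log2 ratio of 2.17 ± 0.16 (SD, n = 8) and made up 81.8 ± 1.64% of their sum. ATP1B1 has a much longer transcript in the annotation (6406 nt against 2216 nt for the canonical one), and with the longest transcripts the log2 ratio was 3.61. ATP1B2, a beta subunit of glia and neurons, reached 1.88 ± 0.442 CPM and passed 1 CPM in 7 of 8 libraries. ATP1B4, which in mammals has left the pump for the nuclear membrane of muscle, had 0.945 CPM. ATP1A4, the alpha gene of sperm, had 0.0224 CPM.

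Among the calcium pumps of the endoplasmic reticulum, ATP2A2 (SERCA2, chromosome 12, 110719032 to 110788897, 20 exons) had 54.6, 31.4, 53.6, 53.99, 51.9, 52.3, 39.2 and 26.2 RPKM in replicates 1 to 8, lowest in replicates 8 and 2. ATP2A1, the fast muscle form, had 0.563, 0.926, 0.668, 0.922, 0.720, 0.794, 0.669 and 0.765 RPKM. ATP2A3, a form described in platelets and endothelium, had 0.363 ± 0.0839 RPKM and lay below ATP2A1 by 0.89 ± 0.41 (log2). ATP2A2 held 97.4% ± 0.782 of the summed RPKM of the 3 genes. It exceeded ATP2A1 by 5.70 ± 0.52 and ATP2A3 by 6.59 ± 0.33 on the log2 scale, or by 4.68 and 5.05 with 1 RPKM added in place of 0.1. ATP2A1 overlaps 2 other listed genes, LOC100289092 and RABEP2, which makes its low level uncertain.

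At the plasma membrane, ATP2B4 (PMCA4, chromosome 1, 203595915 to 203713209, 21 exons) had 13.2, 5.33, 14.3, 12.7, 11.8, 13.4, 8.42 and 5.12 RPKM. ATP2B1 (PMCA1, chromosome 12, 89981826 to 90049844, 21 exons), the form found in most cells, had 4.01, 2.24, 4.22, 3.798, 3.84, 4.10, 2.94 and 2.41 RPKM. Both were lowest in replicates 2 and 8, and their ranges did not overlap. ATP2B4 exceeded ATP2B1 by a log2 ratio of 1.52 ± 0.25. The neuronal and sensory forms ATP2B2 and ATP2B3 had 0.0847 CPM and 0.0968 CPM. ATP2A2 stood at 3.34 ± 0.385 times the sum of ATP2B1 and ATP2B4 in RPKM (SD, n = 8). The Golgi calcium and manganese pump ATP2C1 (chromosome 3, 130569369 to 130735555, 28 exons) had 32.7, 21.2, 31.2, 30.3, 27.5, 29.8, 22.5 and 18.01 RPKM, and its secretory-cell paralog ATP2C2 had 0.778 CPM. ATP2C1 overlaps ASTE1.

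Exchange of calcium for sodium was represented by 2 genes of intracellular or sensory function. SLC24A6, now named SLC8B1, codes for the sodium/calcium exchanger of mitochondria (chromosome 12, 113736571 to 113772925, 16 exons). It had 8.95, 13.2, 9.91, 9.71, 10.005, 9.48, 10.96 and 14.9 RPKM, highest in replicates 8 and 2. SLC24A1, the potassium-dependent exchanger of rod photoreceptors (chromosome 15, 65914270 to 65948598, 10 exons), had 1.89, 1.74, 2.08, 2.06, 1.87, 1.86, 1.64 and 1.85 RPKM and lay 2.46 ± 0.31 below it (log2). The plasma membrane exchangers SLC8A1, SLC8A2 and SLC8A3, which extrude calcium in heart and neurons, had means of 0.299, 0.187 and 0.158 CPM. SLC24A4 and SLC24A5, the latter a pigment cell exchanger that overlaps MYEF2, had 1.26 and 1.28 CPM and passed 1 CPM in 6 and 7 of 8 libraries. SLC24A2 and SLC24A3 had 0.0718 and 0.0132 CPM.

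The bicarbonate carriers were led by SLC4A2 (AE2, chromosome 7, 150755299 to 150773614, 23 exons), an exchanger of chloride for bicarbonate that acidifies the cell. It had 38.95, 55.7, 37.4, 39.04, 38.7, 37.8, 47.5 and 57.9 RPKM in replicates 1 to 8, with the 2 highest values in replicates 8 and 2. It held 83.2% ± 5.04 of the summed RPKM of the 10 SLC4 genes. SLC4A7 (NBCn1, chromosome 3, 27414214 to 27498245, 26 exons), an electroneutral sodium bicarbonate cotransporter that alkalinises the cell, had 5.54, 1.87, 6.97, 6.37, 5.65, 6.14, 3.202 and 1.46 RPKM, with the 2 lowest values in replicates 8 and 2. SLC4A2 exceeded SLC4A7 by 3.38 ± 1.11 (log2), and their RPKM ratio ran from 5.37 in replicate 3 to 39.6 in replicate 8. Without replicates 2 and 8 the ratio ran from 5.37 to 14.8 and the log2 difference was 2.83, and on the authors' length- and GC-adjusted (CQN) values over all 8 libraries it was 2.64.

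SLC4A5, an electrogenic cotransporter of choroid plexus, and SLC4A11, a transporter of corneal endothelium, had 1.74 ± 0.257 RPKM and 1.73 ± 0.326 RPKM. Their log2 ratio was 0.02 ± 0.20, positive in 4 of 8 libraries (exact permutation, adjusted p = 0.813, range -0.32 to 0.27), so their order was not resolved on this scale. SLC4A5 was higher on the authors' length- and GC-adjusted (CQN) values, by 0.50 (exact permutation, adjusted p = 0.00849), and on CPM without length correction, by 1.07 (exact permutation, adjusted p = 0.00930). SLC4A7 exceeded SLC4A5 by 1.19 ± 0.99 in 7 of 8 libraries (exact permutation, adjusted p = 0.0273) and SLC4A11 by 1.21 ± 1.08 in 6 of 8 libraries (exact permutation, adjusted p = 0.0444). Both calls were lost when any of replicates 1, 3, 4, 5, 6 or 7 was left out, with log2 ratios over the 8 exclusions of 1.06 to 1.42 and 1.09 to 1.46 and adjusted p-values of 0.0182 to 0.0545 and 0.0340 to 0.0888 in the same exact permutation test. Both passed without replicates 2 and 8 together, at 1.65 and 1.75 (exact permutation, adjusted p = 0.0347 for each), and on the CQN values, at 1.59 and 2.09 (adjusted p = 0.00849 for each in that permutation test). SLC4A8, a sodium-driven chloride/bicarbonate exchanger, was lowest of the detected 5 at 0.214 ± 0.0727 RPKM. Not detected were the red cell and kidney anion exchanger SLC4A1 (0.723 CPM), SLC4A9 (0.202 CPM), the heart and brain exchanger SLC4A3 (0.0612 CPM), SLC4A10 (0.00967 CPM) and SLC4A4 (0.00277 CPM). SLC4A4 had 2 counts over all 8 libraries.

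In the sodium/proton exchanger family, the highest of the genes described was SLC9A8 (NHE8), an exchanger of the Golgi (chromosome 20, 48429250 to 48508772, 16 exons), with 3.32, 3.44, 3.50, 3.48, 3.89, 3.66, 3.95 and 3.51 RPKM in replicates 1 to 8. SLC9A5, described mainly in brain (chromosome 16, 67282855 to 67306094, 16 exons), had 1.04, 1.31, 1.14, 1.18, 1.08, 1.09, 1.22 and 1.04 RPKM. The 2 ranges did not overlap, and SLC9A8 exceeded SLC9A5 by 1.58 ± 0.13 (log2). SLC9A7 (NHE7) of the trans-Golgi network had 0.863 ± 0.291 RPKM. SLC9A8 exceeded SLC9A7 by 2.00 ± 0.50, a call lost on the CQN values (0.44, exact permutation, adjusted p = 0.220). For SLC9A5 and SLC9A7 the log2 ratio of 0.42 ± 0.53 was positive in 7 of 8 libraries (exact permutation, adjusted p = 0.0594). It was 0.51 without replicate 1 (exact permutation, adjusted p = 0.0182), and it turned to -1.45 on the CQN values (exact permutation, adjusted p = 0.00849). The epithelial exchangers SLC9A2, SLC9A3 and SLC9A4 had 0.0193, 0.684 and 0.665 CPM, the late endosomal SLC9A9 had 0.0479 CPM, and SLC9A10 and SLC9A11, now named SLC9C1 and SLC9C2, had 0.219 and 0.0476 CPM.

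Among the cation-chloride cotransporters, SLC12A2 (NKCC1, chromosome 5, 127419483 to 127525380, 27 exons), which brings sodium, potassium and chloride into the cell, had 9.36, 4.46, 10.6, 9.57, 8.74, 10.4, 7.44 and 5.53 RPKM, lowest in replicates 2 and 8. SLC12A4 (KCC1, chromosome 16, 67977377 to 68002597, 24 exons), which exports potassium with chloride, had 21.2, 25.02, 18.6, 20.6, 19.4, 21.4, 20.4 and 22.8 RPKM. It was the highest of the 8 SLC12 genes described, with 39.8% ± 1.73 of their summed RPKM. SLC12A9 (chromosome 7, 100450358 to 100464634, 14 exons), a member of the family whose cargo is less well defined, had 12.2, 19.7, 12.5, 12.8, 12.6, 12.7, 16.7 and 21.04 RPKM, highest in replicates 8 and 2. The potassium-chloride exporter SLC12A7 (KCC4) had 7.95 ± 0.583 RPKM.

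SLC12A4 exceeded SLC12A9 by 0.52 ± 0.24, SLC12A2 by 1.40 ± 0.56 and SLC12A7 by 1.40 ± 0.14 on the log2 scale of RPKM. The order of SLC12A2 and SLC12A7 was not resolved. SLC12A2 against SLC12A7 had a log2 ratio of 0.00 ± 0.47 (range -0.96 to 0.42, adjusted p = 0.984 by exact permutation), and of 0.22 without replicates 2 and 8 (adjusted p = 0.0665 in the same test). SLC12A4 and SLC12A7 summed to 3.92 ± 1.73 times SLC12A2 in RPKM, from 2.50 in replicate 3 to 7.57 in replicate 2, and from 2.50 to 3.85 in the 6 libraries other than 2 and 8. SLC12A9 exceeded SLC12A2 by 0.88 ± 0.76, and by 0.50 without replicates 2 and 8, but this call was lost with the longest transcripts (0.45). SLC12A8 had 0.703 ± 0.155 RPKM, below each of the other 4 detected genes described. The kidney cotransporters SLC12A1 and SLC12A3 had 0.0260 and 0.0895 CPM, and the neuronal exporter SLC12A5 (KCC2) had 0.130 CPM.

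For phosphate, both type III cotransporters were detected and none of the type II. SLC20A1 (PiT-1, chromosome 2, 113403434 to 113421400, 11 exons), a sodium phosphate importer and retrovirus receptor, had 60.4, 51.6, 69.7, 62.5, 66.9, 66.6, 63.2 and 59.01 RPKM in replicates 1 to 8. SLC20A2 (PiT-2, chromosome 8, 42273993 to 42397068, 11 exons), whose loss causes familial brain calcification, had 15.8, 12.03, 18.3, 16.1, 18.5, 16.98, 20.9 and 12.97 RPKM. SLC20A1 exceeded SLC20A2 by 1.93 ± 0.17 (log2), without overlap. The kidney, gut and lung carriers SLC34A1, SLC34A2 and SLC34A3 had 0.0104, 0.384 and 0.332 CPM.

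Among the anion exchangers of the SLC26 family, SLC26A2 (chromosome 5, 149340300 to 149366963, 3 exons), a sulfate carrier that supplies proteoglycan sulfation, had 29.2, 10.5, 29.9, 27.02, 28.5, 29.03, 19.5 and 10.8 RPKM, lowest in replicates 2 and 8. SLC26A6 (chromosome 3, 48663156 to 48672926, 21 exons), an exchanger of chloride for oxalate and bicarbonate, had 10.7, 15.4, 11.1, 11.3, 9.89, 12.9, 11.02 and 17.5 RPKM, highest in replicates 8 and 2. The ranges overlapped: SLC26A2 lay above SLC26A6 in 6 libraries and below it in replicates 2 and 8. The log2 ratio was 0.80 ± 0.90 (exact permutation, adjusted p = 0.0521), and it was 1.27 without those 2 libraries (adjusted p = 0.0347). It also passed without replicate 2 alone (0.99) and without replicate 8 alone (1.01). On the authors' CQN-normalised values SLC26A2 was higher by 1.34 (exact permutation, adjusted p = 0.00849). SLC26A11, a sodium-independent sulfate carrier, had 7.47 ± 1.48 RPKM and lay below SLC26A6 by 0.73 ± 0.07, which turned to -0.38 with the longest transcripts. SLC26A1, another sulfate carrier, had 0.686 ± 0.0939 RPKM and overlaps IDUA.

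The undetected SLC26 genes were SLC26A4 (pendrin, 1.15 CPM, 5 of 8 libraries at 1 CPM), SLC26A10 (0.376 CPM, annotated as a pseudogene in the reference), SLC26A8 (0.165), SLC26A5 (prestin of outer hair cells, 0.113), SLC26A9 (0.0832), SLC26A7 (0.0260) and the gut exchanger SLC26A3 (0.0190 CPM). In the SLC13 family of sodium sulfate and dicarboxylate cotransporters, SLC13A4 was highest at 0.279 CPM. SLC13A1, SLC13A2, SLC13A3 and SLC13A5 had 0.0151, 0.00344, 0.0258 and 0.0196 CPM.

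**Figure D3:**
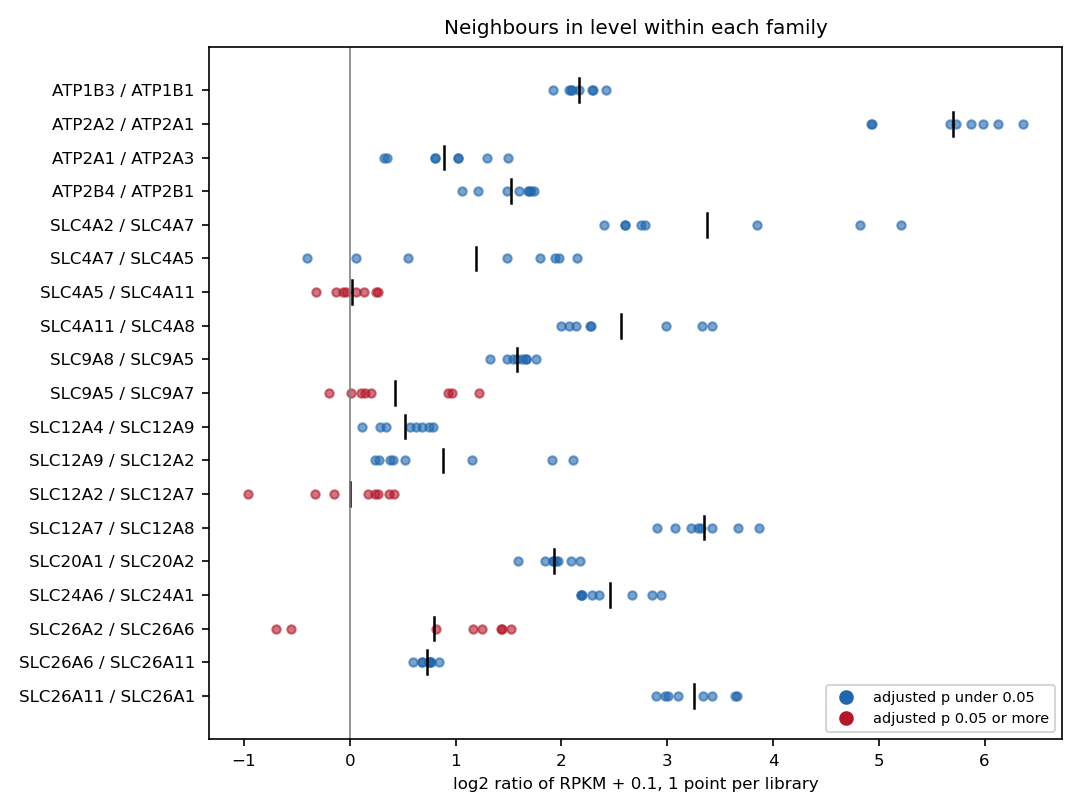
log2 ratio of RPKM + 0.1 between genes that are neighbours in mean level among those described in a family, with 1 point per library and a bar at the mean. Blue pairs had an adjusted p under 0.05 over the 50 pairs tested (exact sign-flip permutation), and the 4 red pairs shown did not.

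The known partners of these proteins were listed by function. Of the 7 FXYD subunits that tune the sodium pump, 1 was detected: FXYD5 (dysadherin), at 170.0 ± 68.6 RPKM, while the highest of the other 6 reached 0.231 CPM. In the kinase pathway that activates SLC12A2 and inhibits the potassium-chloride exporters, 10 of 12 genes were detected. SGK1 had 87.9 ± 28.1 RPKM, the adaptor CAB39 28.6 ± 5.30 RPKM and WNK1 22.98 ± 8.47 RPKM. WNK2 and WNK3 were not detected, at 0.0894 CPM and 0.291 CPM. Of 6 cofactors and scaffolds of the sodium/proton exchangers with a row (CHP1 was not matched by symbol), EZR (112 ± 6.00 RPKM), SLC9A3R2 (68.3 ± 33.6 RPKM) and SLC9A3R1 (25.2 ± 6.43 RPKM) were detected, and CHP2, TESC and PDZK1 were not.

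The active enzymes of the carbonic anhydrase family supply bicarbonate and protons to the exchangers. Of 15 genes of this family, CA2 (30.5 ± 4.82 RPKM), CA12 (4.12 ± 0.461 RPKM), CA11 (2.70 ± 0.680 RPKM) and CA5B (1.58 ± 0.253 RPKM) were detected. CA11 overlaps other listed genes, SEC1 among them. CA4, the membrane-bound form of brain capillaries, had 0.294 CPM. Among genes that restrain SERCA or release and refill its calcium, 8 of 13 were detected, all of them inositol trisphosphate receptors, STIM and ORAI genes. ITPR3 was highest at 51.8 ± 13.5 RPKM, then ORAI1 at 23.2 ± 7.55 RPKM and STIM1 at 15.97 ± 1.36 RPKM. The SERCA inhibitors PLN and SLN had 0.0130 CPM and 0.0274 CPM. Of 11 related carriers and pumps with a row, ATP13A3 (33.5 ± 13.5 RPKM), ATP13A2 (18.3 ± 1.86 RPKM), ATP13A1 (14.1 ± 2.91 RPKM), the phosphate exporter XPR1 (7.99 RPKM), ANKH (3.73 RPKM) and SLC9B2 (2.45 RPKM) were detected. The gastric and colonic proton pump genes ATP4A, ATP4B and ATP12A had 0.0686, 0.146 and 0.0165 CPM.

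Whether a gene varied between the libraries more than other genes at its level was asked over all 11980 detected genes, with the goodness-of-fit test of edgeR on its trended dispersion. SLC4A7 and SLC26A2 passed, 2 of the 29 detected genes (6.9%), against 4.66% of all detected genes. This share is near the background. SLC4A7 had 44.8, 15.1, 56.3, 51.4, 45.6, 49.6, 25.9 and 11.8 CPM in replicates 1 to 8 (adjusted p = 0.000317, Benjamini-Hochberg over all genes). Replicates 8 and 2 were lowest, replicate 7 was next, and the other 5 lay together. SLC26A2 had 235, 84.3, 241, 218, 229.8, 234, 157 and 86.6 CPM (adjusted p = 0.0423), with the same order of the low libraries except that replicate 2 was below replicate 8. ATP2B4 followed the same pattern, with 115, 46.4, 124, 110.3, 103, 117, 73.2 and 44.5 CPM, and had an unadjusted p of 0.00564 and an adjusted p of 0.0919 in that edgeR test. In none of the 29 genes did 1 library stand alone by Dixon's ratio on CPM, against 2.86% of all detected genes.

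The call for SLC26A2 was lost when any 1 library was left out (adjusted p from 0.0523 to 0.261), whereas that for SLC4A7 remained in all 8 such fits. Without replicates 2 and 8 together neither passed, with adjusted p-values of 0.0744 for SLC4A7 and 1.00 for SLC26A2 in edgeR. Once the dependence on length and GC content, fitted per library over all detected genes, was taken out, SLC4A7 still passed (adjusted p = 0.0126) and SLC26A2 did not (0.845). In the partner lists, 5 of 32 detected genes (15.6%) varied above the trend, against the 4.66% of all detected genes: WNK1, SLC9A3R2, ITPR1, ITPR2 and ATP13A3 (edgeR adjusted p = 0.0370, 0.0231, 0.0445, 0.00388 and 0.00428). SLC9A3R2 was highest in replicate 8, at 302 CPM against 90.1 CPM in replicate 1. WNK1 had 107 and 125 CPM in replicates 8 and 2 and 197 to 328 CPM in the others. It was low where SLC4A7 was low, as were ITPR1, ITPR2 and ATP13A3. The transcripts of WNK1, ITPR1, ITPR2 and ATP13A3 are long, at 10796, 9908, 12564 and 7538 nt. Long transcripts had fewer counts in replicates 2 and 8. With the length and GC trend removed, replicates 2 and 8 stayed the 2 lowest for WNK1, ITPR1 and ATP13A3, but not for ITPR2.

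The place of replicates 2 and 8 divided the 29 genes. They were the 2 lowest libraries for 14 genes (48.3%), against 29.8% of all detected genes: ATP1B1, ATP2A2, ATP2A3, ATP2B1, ATP2B4, ATP2C1, SLC4A7, SLC4A8, SLC9A7, SLC12A2, SLC12A8, SLC20A1, SLC20A2 and SLC26A2. They were the 2 highest for 7 genes (24.1%), against 33.7%: SLC4A2, SLC4A11, SLC12A4, SLC12A9, SLC24A6, SLC26A6 and SLC26A11. The 7 genes high in these libraries had transcripts of 58.5% to 64.8% GC and 2611 to 4708 nt. The 14 genes low in them had a median of 45.5% GC and 6968 nt, although ATP2A3 (63.2% GC) and the short ATP1B1 were among them. After removal of the length and GC trend, replicates 2 and 8 were the 2 lowest for 9 of the 29 and the 2 highest for 3, against 23.6% and 25.2% of all detected genes with a known length.

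**Figure D4:**
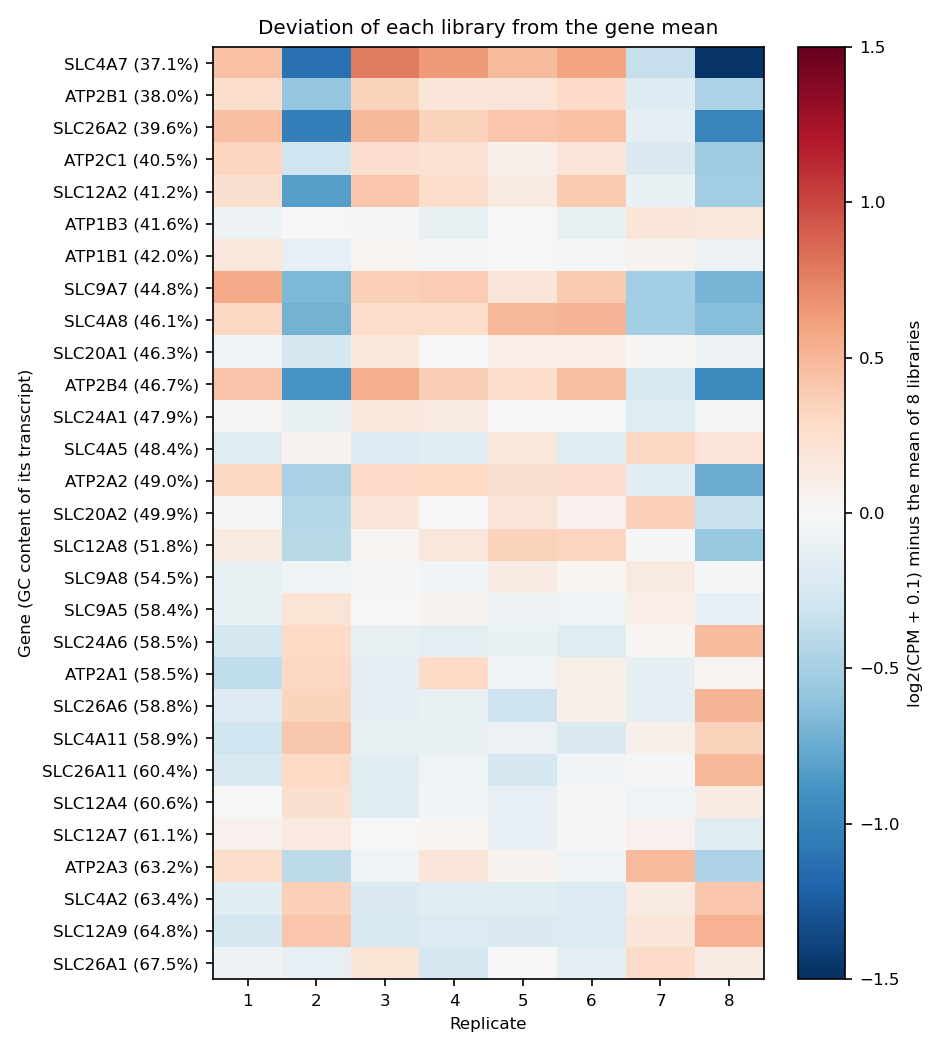
Deviation of each library (columns) from the gene mean, in log2(CPM + 0.1), for the 29 detected genes ordered by the GC content of their transcript. Replicates 2 and 8 are blue (low) in most AT-rich genes at the top, down to -1.47 for SLC4A7 in replicate 8, and red (high) in many GC-rich genes below, up to 0.52 for SLC12A9.

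Across the 29 genes, the log2 deviation of replicate 8 had a Pearson's r of 0.662 with GC content and -0.709 with log2 length, against 0.578 and -0.611 over all detected genes. For replicate 2 the values were 0.736 and -0.690. These correlations are across genes that share the same libraries, GC content and length are themselves related (r = -0.407), and they are given as a description. The median SD between libraries of the 29 genes was 0.26 in log2(CPM + 0.1), 0.15 after removal of the trend and 0.15 on the authors' CQN-normalised values. Over all detected genes with a known length the same medians were 0.28, 0.17 and 0.16.

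With the trend removed, the SD between libraries was smaller for 20 of the 29 genes (69.0%), against 75.3% of all detected genes with a known length. SLC12A9 went from an SD of 0.32 to 0.07 and ATP2C1 from 0.31 to 0.06 (log2). SLC4A7 went from 0.87 to 0.44 and remained the most variable of the 29 on this scale, with ATP2A3 close to it at 0.42. On the CQN values SLC9A7 (0.67), SLC4A5 (0.44) and ATP2A3 (0.41) had larger SDs than SLC4A7 (0.38). The log2 deviation of SLC4A7 in replicate 8 was -0.73 after the trend was removed. With the trend removed SLC4A5 went the other way, from 0.21 to 0.39. ATP1B1 and ATP1B3 were among the steadiest, with SDs of 0.09 and 0.12 before and 0.07 and 0.09 after removal of the trend.

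**Figure D5:**
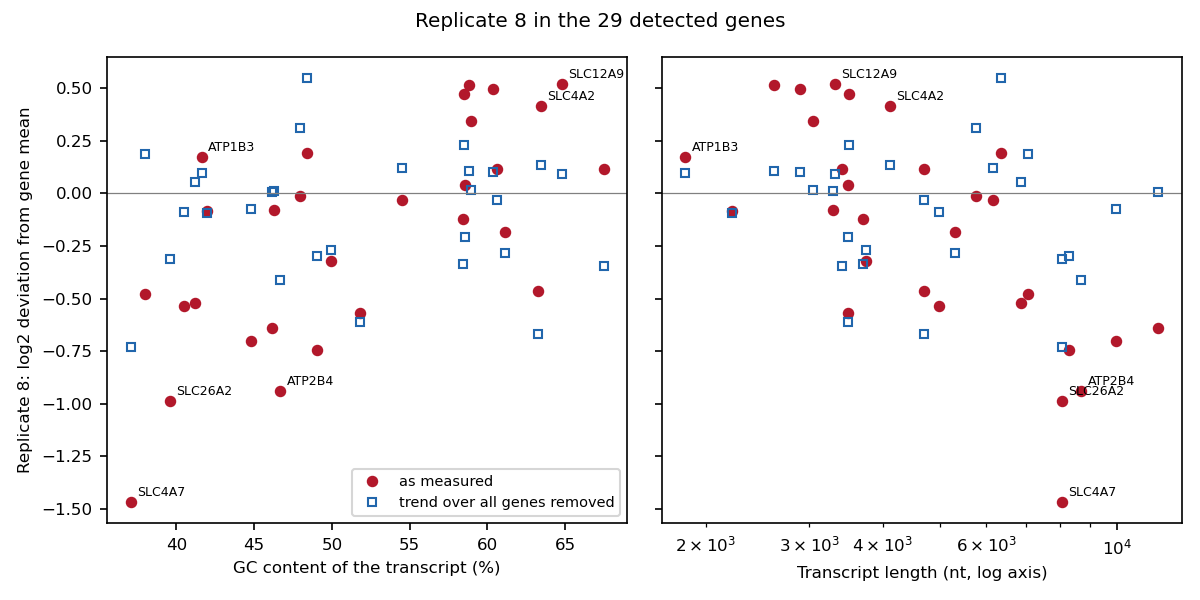
log2 deviation of replicate 8 from the mean of 8 libraries for the 29 detected genes, against the GC content (left) and the length (right, log axis) of the transcript. Filled circles are as measured, open squares have the trend over all detected genes removed, and SLC4A7 moves from -1.47 to -0.73.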

How the data were processed

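Libraries of polyadenylated RNA used the TruSeq RNA kit, version v2, per the labels. This kit does not mark strand, so reads of overlapping genes cannot be told apart. Besides the overlaps named above, the detected ATP1B1 overlaps NME7, ATP2B4 overlaps LINC00260 and SNORA77, and SLC12A4 overlaps LCAT. SLC12A7 overlaps MIR4635 and SLC20A2 overlaps C8orf40. The submitters' processing notes name CASAVA 1.9, TopHat2 2.0.6, HTSeq and hg19. Strand use, annotation and filters are not given in the sources used here. The authors deposited raw counts per gene (whole, not normalised, all even) and CQN-normalised values, taken from the deposited values as log2. Each value column was assigned by its replicate number.

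CPM used TMM-scaled library sizes (edgeR 4.0.16, R 4.3.3). RPKM divides CPM by the length of the canonical GENCODE 44 transcript on GRCh37, to which 67 of the 71 genes described were matched by symbol and 4 by synonym. The other 6 of the 77 genes are not reported here; p-values of pairs were adjusted over all 50 pairs. Gene positions are printed 1-based. Variation was tested with edgeR's goodness-of-fit on the trended dispersion, and with a DESeq2 1.42.0 trend as an alternative. The goodness-of-fit and the sign-flip test were also run on simulated data, and the outcomes are not given here. The counts simulated for the goodness-of-fit test held no length or GC trend. The length and GC trend was a spline fit per library. RPKM ratios depend on which transcript is expressed. Genes, lists and tests were chosen with earlier results of these data known. Each of the 29 detected genes is named with its level. Values in all 8 libraries are given for the 2 highest of these in each family and for those above the variation trend.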

Additional observations from a re-analysis of the deposited data

How the results depend on the processing

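The number of detected genes among the 71 was 29 to 35 under 13 of 14 other settings and 42 with a minimum of 10 counts per library in place of 1 CPM. The 29 genes were detected under all of them. The number varying above the trend (2) became 7 with the DESeq2 fitted trend, which called 23.5% of all genes. It was 1 when every gene with at least 1 count was tested (3.26% of all genes tested were called). It was 1 with the length and GC trend removed (6.57%) and when any single replicate was left out (3.15% to 4.09%). It was 0 in edgeR with replicates 2 and 8 left out together, where 2.75% of all genes were called (2 at an unadjusted p under 0.05, and no other tool was run there). It stayed at 2 with plain totals (4.77%) and with halved counts (4.63%), an alternative chosen after seeing the data. The all-gene share thus changed with the setting too. Of the 36 ratios, 30 to 34 passed under each alternative, and 32 as reported. On CPM without length correction, SLC12A9 to SLC12A2 (-0.17) and SLC9A5 to SLC9A7 (-0.94) turned. On CQN values SLC12A2 to SLC12A7 (-0.038) and SLC9A5 to SLC9A7 (-1.45) turned. With the longest transcripts SLC26A6 to SLC26A11 turned to -0.38. Leaving out each replicate gave -0.056 to 0.14 for SLC12A2 to SLC12A7 and -0.017 to 0.067 for SLC4A5 to SLC4A11. Of these, only SLC12A9 to SLC12A2 and SLC26A6 to SLC26A11 had passed the test. The mean CPM of the 29 genes moved by less than 1 SD with DESeq2 size factors. Without replicates 2 and 8 no mean could have moved by 1 SD of the 8 values. No paired analysis was possible because the labels give 1 group. Depth limits the genes under 0.1 CPM, where a level rests on a few read pairs.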

Other observations

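SLC9A7 was not brought closer by both adjustments: its SD between libraries was 0.53 in log2(CPM + 0.1), 0.19 after removal of the length and GC trend, and 0.67 on the authors' CQN-normalised values. Its CQN values in replicates 1 to 8 were 4.71, 3.19, 4.54, 4.57, 4.32, 4.58, 3.55 and 3.14, lowest in replicates 8, 2 and 7. The same values for SLC26A2 were 7.24, 6.71, 7.24, 7.17, 7.35, 7.28, 7.22 and 6.94, a narrower range, and those of SLC4A7 were 5.16, 4.59, 5.43, 5.41, 5.39, 5.30, 4.94 and 4.47. The length and GC content that the authors used for SLC9A7 are not given in the sources used here, and their part in the wider spread was not tested. SLC9A7 was chosen for this description after its values were seen.

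Of the 10 detected genes of the WNK kinase list, 6 (WNK1, STK39, OXSR1, CAB39, CUL3 and NEDD4L) had their 2 lowest CPM values in replicates 2 and 8, against 29.8% of all detected genes. This was not particular to the list. It held for 4 of 8 detected genes of the SERCA and calcium store list, 3 of 6 related carriers and pumps and 2 of 4 carbonic anhydrases. It held for 0 of 3 exchanger cofactors and scaffolds and 0 of 1 FXYD genes. Of the chloride carriers the WNK pathway controls, SLC12A2 was also lowest in replicates 2 and 8 and SLC12A4 was highest in them. SLC12A7 ranged from 36.97 to 46.6 CPM. With the length and GC trend removed, 4 of the 10 kinase list genes (WNK1, WNK4, OXSR1 and CAB39) had replicates 2 and 8 lowest, against 23.6% of all detected genes with a known length. Replicates 2 and 8 were then no longer the 2 lowest for SLC12A2 or the 2 highest for SLC12A4. SLC12A2 stayed lowest in replicate 2, with a log2 deviation of -0.41 there and 0.05 in replicate 8. The transcript of SLC12A2 has 41.2% GC, and those of SLC12A4 and SLC12A7 have 60.6% and 61.1%. After removal of the trend the SDs of SLC12A2, SLC12A4 and SLC12A7 were 0.18, 0.07 and 0.13 (log2).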
